A study of Mus musculus with 2 samples.

Results

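The platelet-derived growth factor (PDGF) family was followed across the cell classes of the mouse cerebral cortex in a control library and a white matter injury (WMI) library. Its members are the receptor genes *Pdgfra* and *Pdgfrb* and the ligand genes *Pdgfa*, *Pdgfb*, *Pdgfc* and *Pdgfd*. They were taken by gene symbol and are 6 of the 55450 genes in the count tables, each symbol occurring once. The study asked how neonatal hypoxia and ischemia alter the cells of the oligodendrocyte (OL) lineage, and both libraries were measured by droplet single-cell RNA-seq, in which each RNA molecule is counted once by a unique molecular identifier (UMI). Both libraries came from C57BL/6 mice labelled 2 weeks old. For the WMI group, the labels give occlusion of the right carotid on postnatal day 7 with 1 h of hypoxia, and cortex of that side taken on day 14. For the control group they give cortex of the same side and name no other treatment, although the surgery text stands beside both libraries. The study's methods give an earlier age and dissociated cells, whereas the labels describe nuclei, and the labels do not say how many mice each library held. The study's methods describe several replicates per group, whereas 1 library per group was analysed here.

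PDGF ligands are secreted dimers that bind receptor tyrosine kinases. The alpha receptor is the classic surface marker of OL precursor cells (OPCs), and PDGF-AA made by neurons and astrocytes drives the division of OPCs and delays their maturation. PDGF-B from endothelial cells acts on the beta receptor of pericytes and holds these cells on the capillary wall. PDGF-C and PDGF-D are secreted in a latent form and become active only after proteases cut off their CUB domain, and PDGF-C then binds mainly the alpha receptor and PDGF-D mainly the beta receptor.

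There was 1 library per group, so no test over samples could be made and no p-value is given. Levels are UMIs of a gene over all UMIs of the cells named, scaled to 1000000 (CPM), with exact 95% Poisson intervals. Ratios of WMI to control have exact conditional binomial intervals, and shares of cells have exact (Clopper-Pearson) ones. These intervals cover counting error only and leave out the variation between mice, and cells of 1 library are not replicates.

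Barcodes were kept with at least 1000 UMIs, at least 500 genes and at most 10% of mitochondrial UMIs, and predicted doublets were removed. This left 8755 control and 7571 WMI cells, with median depths of 4304 and 5017 UMIs. The libraries stood apart in several ways that touch the results. The median mitochondrial share was 0.061% in control and 0.455% in WMI cells. UMIs of *Xist*, which female cells transcribe, were found in 5 control and 4785 WMI cells, so that the WMI library held female and male cells and the control library almost only male cells. Neurons with the markers of striatal projection neurons numbered 0 in control and 91 in WMI, although the tissue is labelled as cortex. The libraries shared 36 cell barcodes. Clusters were named from marker lists that hold no PDGF gene, and the PDGF genes took no part in the clustering. In control and WMI, the named classes held 325 and 522 OPC-like, 147 and 420 pre-OL-like, 88 and 48 mature OL-like, 485 and 582 astrocyte-like and 431 and 674 microglia-like cells. The vascular classes were small, with 51 and 61 fibroblast-like, 22 and 15 endothelial-like and 1 and 12 mural-like cells. Neurons made up 3079 and 2788 excitatory and 447 and 378 inhibitory neuron-like cells, and 3623 control and 1816 WMI cells stayed in clusters without a name. The files hold more barcodes than the study counts cells.

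On GRCm38 (GENCODE M21), *Pdgfra* (ENSMUSG00000029231) lies at chr5:75152292-75198215 and *Pdgfa* (ENSMUSG00000025856) on the same chromosome at chr5:138976014-138997370. *Pdgfb* (ENSMUSG00000000489) lies at chr15:79995874-80014977, *Pdgfc* (ENSMUSG00000028019) at chr3:81036416-81214040 and *Pdgfd* (ENSMUSG00000032006) at chr9:6168584-6378850. The windows from 250 bases before to 50 bases after the start annotated in RefSeq, which differs from the GENCODE start for both genes, are printed for *Pdgfra*, the receptor that marks OPCs, and for *Pdgfd*, the ligand that differed most between the libraries. They are RefSeq sequences of GRCm38.p6, on the plus strand at chr5:75152001-75152300 and chr9:6168236-6168535, and capitals mark CG dinucleotides, the sites at which mammalian DNA is methylated.

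Pdgfra: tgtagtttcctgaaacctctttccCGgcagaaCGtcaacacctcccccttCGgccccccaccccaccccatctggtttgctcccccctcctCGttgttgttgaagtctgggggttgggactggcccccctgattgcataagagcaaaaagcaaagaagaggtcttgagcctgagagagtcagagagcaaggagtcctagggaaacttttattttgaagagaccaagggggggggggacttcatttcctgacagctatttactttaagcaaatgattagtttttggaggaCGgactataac
Pdgfd: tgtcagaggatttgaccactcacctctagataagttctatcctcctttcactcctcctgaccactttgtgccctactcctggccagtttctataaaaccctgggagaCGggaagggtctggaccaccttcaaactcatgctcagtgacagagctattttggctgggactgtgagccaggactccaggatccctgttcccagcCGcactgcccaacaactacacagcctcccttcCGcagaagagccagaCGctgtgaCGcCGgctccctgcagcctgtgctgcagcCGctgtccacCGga

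The *Pdgfra* window holds 5 CG sites and the *Pdgfd* window 8, against a median of 7 over 32851 windows of 300 bases in the same table. The *Pdgfc* window also holds 8, whereas the windows at the annotated starts of *Pdgfa*, a gene that was counted at a low level in every major class, hold 24 and 37. GGGCGG, searched on both strands, is found once and 2 times in the *Pdgfa* windows and not in those of the other 3 genes, and 35.7% of all windows hold it. These are descriptions of the letters in these windows, and the libraries measured RNA, not the DNA of these windows.

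*Pdgfra*, the receptor of OPCs, was highest in OPC-like cells in both libraries. Their level was 465 CPM in control (434 to 498, 828 UMIs in 325 cells) and 410 CPM in WMI (386 to 436, 1029 UMIs in 522 cells). The ratio of WMI to control was 0.883 (0.805 to 0.969), or -0.18 on the log2 scale (-0.31 to -0.046). The WMI level was thus the lower one by a small amount, with an interval that covers counting error only. In control, 56 of 325 cells held no *Pdgfra* UMI and 131 held 3 or more, up to 12. In WMI, 134 of 522 cells held none and 157 held 3 or more, up to 14.

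The share of OPC-like cells with a *Pdgfra* UMI depended on depth. With all UMIs it was 82.8% in control and 74.3% in WMI, at median depths of 4940 and 4377 UMIs. With every cell thinned to 1000 UMIs it was 33.2% and 32.8%, a difference of -0.472 percentage points (-7.21 to 6.14). With thinning to 2000 UMIs, shallower cells left out, the difference was -8.06 points, close to the -8.44 points with all UMIs. Each thinning was drawn once, and that to 2000 UMIs used fewer cells. How the difference depends on depth was therefore not tested. Excitatory neuron-like cells gave thinned shares of 0.617% and 1.15% and unthinned shares of 7.41% and 10% at depths of 10138 and 9770. How much of the *Pdgfra* in these cells outside the lineage is free RNA was not tested. Neurons held so much of the total RNA that these few UMIs per cell still came to 16.5% of all *Pdgfra* UMIs, against 55.5% in OPC-like cells.

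Fibroblast-like cells came next, with 98.8 CPM (67.2 to 140) in control and 154 CPM (116 to 201) in WMI. Over both libraries the OPC-like level was 2.72 to 4.26 times the fibroblast-like level, which in turn stood above the neuroblast-like level of 25.5 CPM. From there down to the 8.3 CPM of excitatory neuron-like cells, no class differed from the next beyond counting error. Within the fibroblast-like cells, *Pdgfra* was uneven. A sub-cluster of 66 cells led by *Bmp6* and *Cped1* held 221 CPM (174 to 276), and a sub-cluster of 33 cells led by *Bnc2* and *Slc47a1* held 26.1 CPM (9.57 to 56.8).

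**Figure D1:**
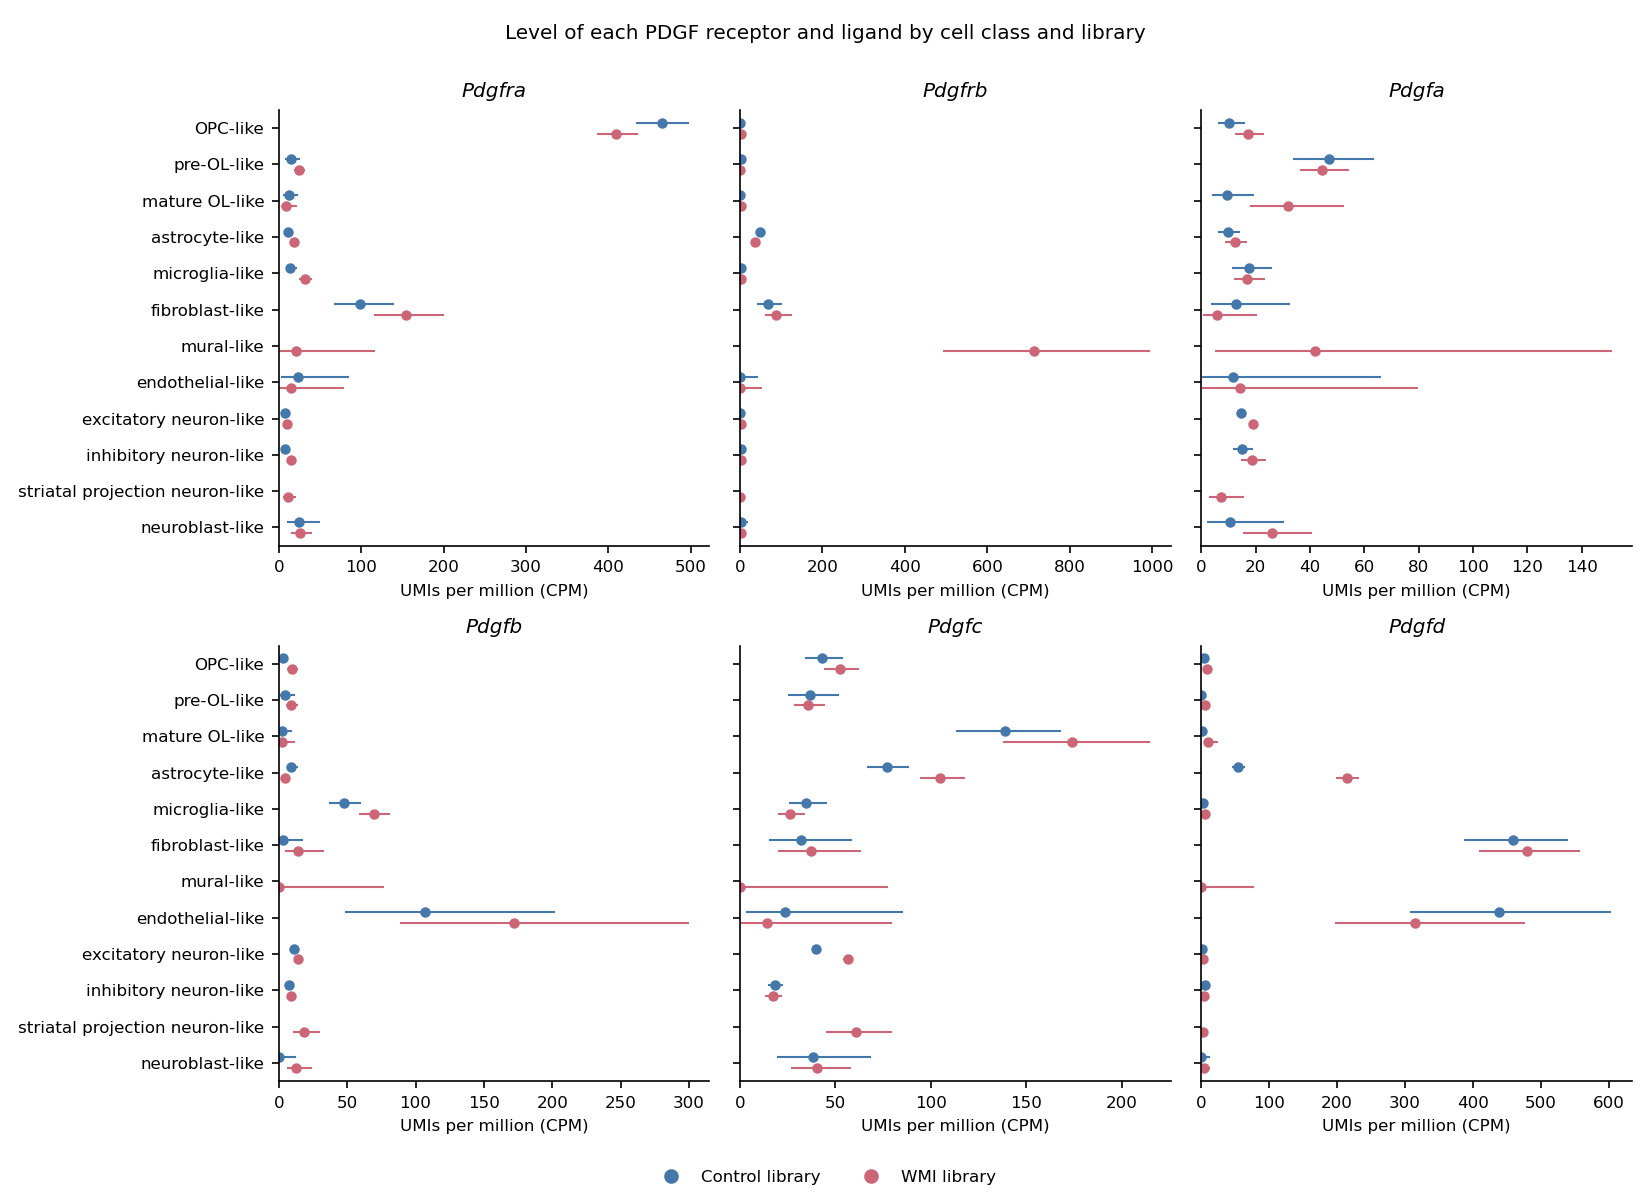
Levels of the 6 PDGF genes by cell class, in CPM of the class. Dots are the CPM of each library, lines are 95% Poisson intervals for counting error, and classes with under 10 cells in a library have no dot there. *Pdgfra* stands out in OPC-like cells (465 and 410 CPM), *Pdgfrb* in mural-like cells and *Pdgfd* in fibroblast-like and endothelial-like cells, and the *Pdgfd* dots of astrocyte-like cells lie apart (54.1 in control and 215 in WMI).

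Along the OL lineage, *Pdgfra* stepped down with maturation. When the lineage cells were clustered on their own, the largest OPC-like sub-cluster held 464 CPM in control and 453 in WMI, a ratio of 0.977 (0.864 to 1.1). The next one held 518 and 444 CPM (ratio 0.857, 0.707 to 1.04). The cycling OPC-like sub-cluster, led by *Top2a*, held 396 and 295 CPM (ratio 0.745, 0.561 to 0.99). An earlier pre-OL-like sub-cluster, in which *Bmp4* was a leading gene, held 53.1 and 42.8 CPM, and a later one led by *Bcas1* and *Enpp6* held 4.61 and 17.7 CPM from 2 and 23 UMIs. The ratio was below 1 in all 3 OPC-like sub-clusters and its interval stayed below 1 in the cycling one alone. The makeup of the class differed: the first sub-cluster held 70.2% of the control and 34.9% of the WMI OPC-like cells, and the second, whose median mitochondrial share was 0.99%, held 17.5% and 48.5%.

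**Figure D2:**
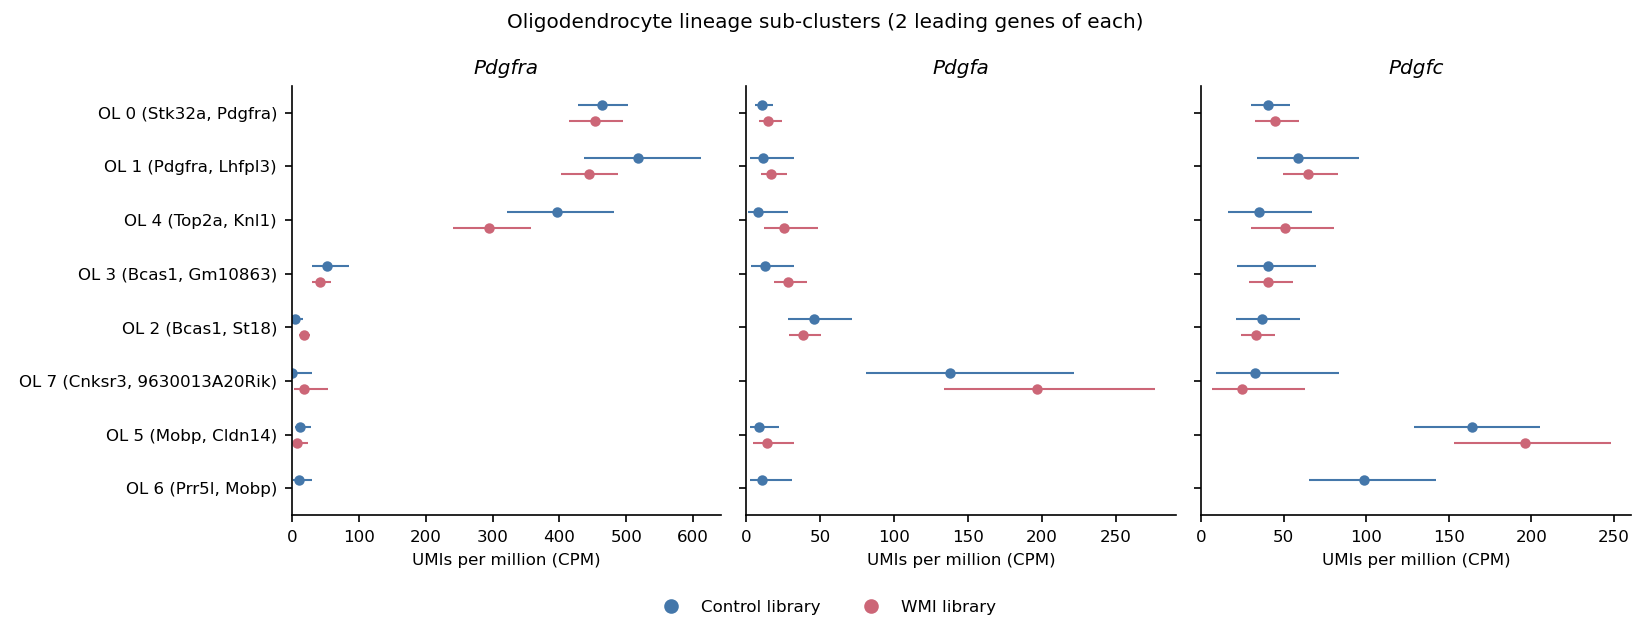
*Pdgfra*, *Pdgfa* and *Pdgfc* in the sub-clusters of the OL lineage, in CPM of each library with 95% Poisson intervals for counting error. *Pdgfra* is highest in the OPC-like sub-clusters, *Pdgfa* is highest in the small *Cnksr3* sub-cluster (138 and 197 CPM) and *Pdgfc* in the mature OL-like ones (164 and 196 CPM in the larger).

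*Pdgfrb* (ENSMUSG00000024620, chr18:61045150-61085061), the pericyte receptor, was a vascular and an astrocyte gene in these libraries. It was highest in mural-like cells, the class of pericytes and smooth muscle cells, but that class had 2 UMIs in 1 control cell and 34 UMIs in 12 WMI cells (712 CPM, 493 to 995), so that it could not be compared between the libraries. Fibroblast-like cells held 67 CPM in control (41.4 to 102, 21 UMIs) and 88.3 CPM in WMI (60 to 125, 31 UMIs), a ratio of 1.32 (0.734 to 2.41). Over both libraries the order was mural-like, fibroblast-like (78.2 CPM), astrocyte-like (41.9 CPM) and then the rest at 3.05 CPM or less, and each of these steps was larger than counting error. Endothelial-like cells held 0 *Pdgfrb* UMIs, which allows up to 43.7 CPM in control and 52.8 CPM in WMI.

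Because astrocytes far outnumbered the vascular cells, they held 46.9% of all *Pdgfrb* UMIs, against 10.5% in fibroblast-like and 7.27% in mural-like cells. The astrocyte-like level was 49.2 CPM in control (40.9 to 58.8, 122 UMIs) and 35.9 CPM in WMI (29.5 to 43.3, 110 UMIs), a ratio of 0.73 (0.559 to 0.952). The thinned shares of cells with a UMI were 4.54% and 4.47% (unthinned 20.4% and 16.5%), against 0.065% and 0.179% in excitatory neuron-like cells. The 11 mural markers summed to 87.1 and 95.4 CPM in astrocyte-like cells, against 12367 CPM in mural-like cells. In 3 of the 4 astrocyte-like sub-clusters the ratios were 1.05, 0.997 and 1.02, each with an interval that includes 1. The fourth, led by *A2m* and *Gfap*, held 58 CPM from 6 UMIs in 19 control cells and 12.2 CPM from 13 UMIs in 183 WMI cells (ratio 0.21, 0.0745 to 0.674). Without this sub-cluster, which is over 90% WMI cells, the log2 ratio of the class moved from -0.45 to -0.0064 (-0.41 to 0.40).

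*Pdgfa*, the ligand that drives OPC division through the alpha receptor, was spread thinly over all classes. Its highest level in a class with at least 50 cells per library was in pre-OL-like cells, with 47 CPM in control (33.7 to 63.7, 41 UMIs) and 44.5 CPM in WMI (36.2 to 54.2, 100 UMIs), a ratio of 0.948 (0.653 to 1.4). The thinned shares of these cells with a UMI were 2.04% and 5.48% (unthinned 18.4% and 17.6%), against 1.03% and 2.06% in astrocyte-like cells (4.33% and 6.53%), with all median depths between 4712 and 5247 UMIs. No class differed from the next in order beyond counting error. Only neighbours in order were compared, and the class after pre-OL-like cells, mural-like, rests on 2 UMIs. Over both libraries pre-OL-like cells held 45.2 CPM, against 21.4 in neuroblast-like, 16.7 in excitatory neuron-like and 14.2 in OPC-like cells. Part of the pre-OL-like level lay in 1 small sub-cluster, described below. Excitatory neuron-like cells held 14.6 CPM in control (13.4 to 16) and 18.9 CPM in WMI (17.4 to 20.4), below the pre-OL-like interval of each library. Through their number and depth they held 56.4% of all *Pdgfa* UMIs, against 60.6% of the UMIs of all genes. Of their 13 clusters, 8 stood higher and 5 lower in WMI, with an interval above 1 in 1 and below 1 in 0. That 1 cluster, led by *B130024G19Rik*, had 56 control and 525 WMI cells. It held 4.67 CPM from 3 UMIs in control and 28.6 CPM from 182 UMIs in WMI.

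Within the lineage the level of *Pdgfa* was highest in 1 small sub-cluster. Its 36 cells were led by *Cnksr3*, *9630013A20Rik* and *Tcf7l2*, with the myelin genes *Mbp* and *Mag* of mature OLs also among the leading genes, so that it is given no stage here. It held 138 CPM in control (17 UMIs) and 197 CPM in WMI (32 UMIs), a ratio of 1.42 (0.765 to 2.73). It made up 10.2% of the control and 3.57% of the WMI pre-OL-like cells. Of the *Pdgfa* UMIs of the pre-OL-like class it carried 41.5% in control and 25% in WMI. The *Bcas1* and *Enpp6* sub-cluster held 46.1 and 38.5 CPM from more UMIs (20 and 50), and the early one 12.5 and 28.2 CPM (4 and 27 UMIs). OPC-like cells held 10.1 and 17.1 CPM. In mature OL-like cells *Pdgfa* stood at 9.42 CPM from 7 UMIs in control and at 31.8 CPM from 15 UMIs in WMI (ratio 3.37, 1.29 to 9.77). The *Cnksr3* sub-cluster held 0 of the 88 control and 6 of the 48 WMI cells of this class and 46.7% of its WMI *Pdgfa* UMIs, and in the mature OL-like sub-clusters the ratios were 1.58 (0.341 to 7.98) and 4.78 (0.64 to 35.7). Receptor and ligand were thus highest in different cells, *Pdgfra* in OPC-like cells and *Pdgfa* in the *Cnksr3* sub-cluster. With all UMIs, 60 of 1550 cells of the lineage (3.87%) held both, and 8.29% of the cells with a *Pdgfra* UMI held *Pdgfa*, against 11.3% of all lineage cells.

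*Pdgfb*, which endothelial cells use to recruit pericytes, was highest in endothelial-like cells in both libraries, with 107 CPM in control (48.7 to 202, 9 UMIs in 22 cells) and 172 CPM in WMI (88.7 to 300, 12 UMIs in 15 cells). Microglia-like cells followed at 47.4 CPM in control (36.7 to 60.2, 67 UMIs) and 69.5 CPM in WMI (58.9 to 81.5, 152 UMIs), and all other named classes stood at 18.2 CPM or less over both libraries. The microglia-like ratio was 1.47 (1.09 to 1.99). Cells with 2 or more UMIs numbered 2 of 431 in control and 18 of 674 in WMI, and the thinned shares of cells with a UMI were 5.1% and 6.38% (unthinned 15.1% and 18.8%). In excitatory neuron-like cells these were 1.23% and 1.4% (unthinned 10.8% and 14.6%), at the depths given above and against microglia-like depths of 3130 and 3015. The direction turned in 1 of 14 alternatives. Without integration of the libraries the log2 ratio moved from 0.55 (0.13 to 0.99) to -0.34 (-2.26 to 1.08), a wide interval that includes both 0 and 0.55. In several other alternatives the ratio stayed above 0 with an interval that includes 0.

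Cycling microglia-like cells held 86.5 CPM (50.4 to 138) over both libraries. *Pdgfb* was also counted in myeloid clusters that the marker lists did not name and that were almost all WMI cells. A cluster led by *Apobec1* and *Gpnmb* (12 control and 435 WMI cells) held 59.3 CPM (48.6 to 71.7). Another, led by *Ftl1* and *Spp1* (10 and 927 cells), held 33.9 CPM (26.4 to 42.8). WMI barcodes under 1000 UMIs held 20.5 CPM (4.22 to 59.9), and the part of free RNA in these clusters was not tested. Excitatory neuron-like cells stood at 11.2 CPM in control and 14.2 CPM in WMI. They carried 51.2% of all *Pdgfb* UMIs, against 60.6% of the UMIs of all genes. Microglia-like cells carried 13.3%, against 3.27% of the UMIs of all genes. *Gm41361*, annotated on the opposite strand of the *Pdgfb* locus with 0 shared exon bases, had 3166 UMIs and was distributed differently, with 34.9 CPM in excitatory neuron-like, 16.9 in microglia-like and 0 in endothelial-like cells.

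**Figure D3:**
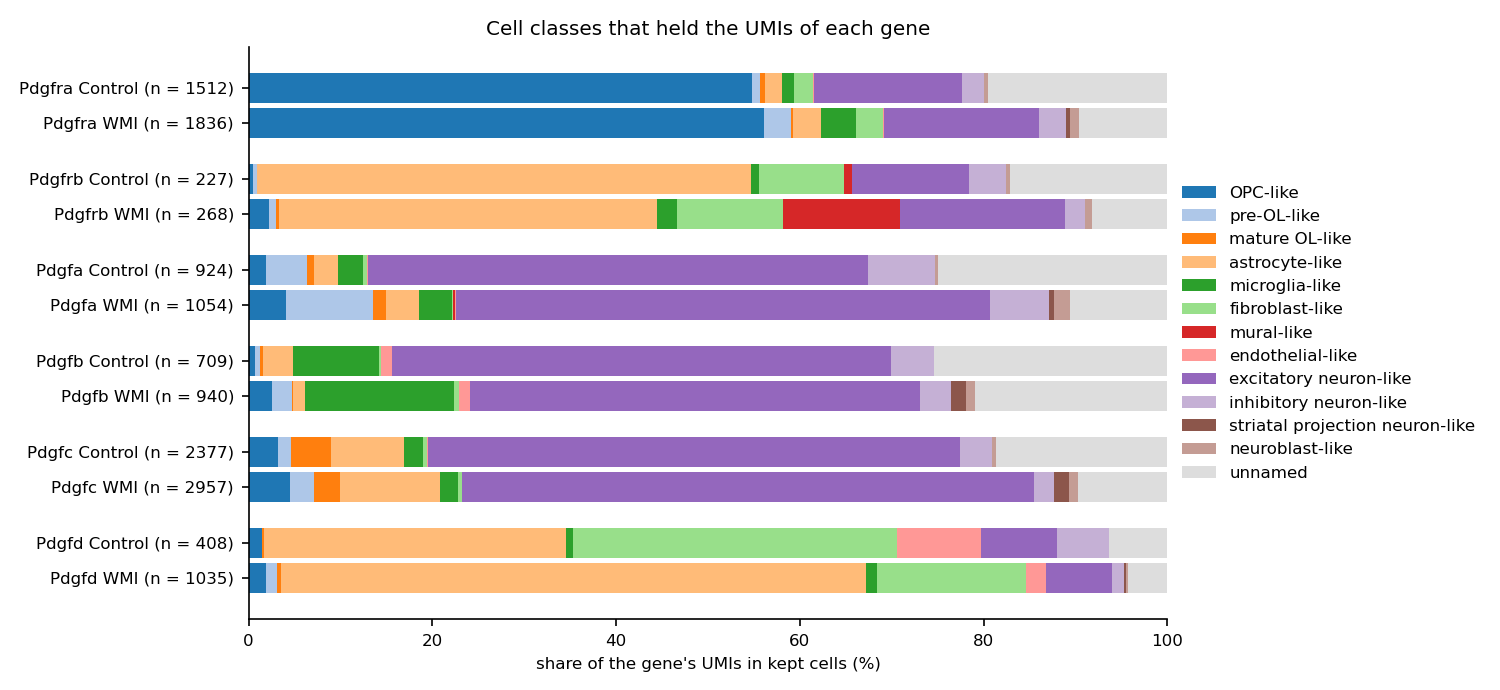
Share of each PDGF gene's UMIs held by each cell class, in percent of its UMIs in the kept cells of each library. Values are given for control and then WMI. OPC-like cells hold 54.8% and 56% of *Pdgfra*. Astrocyte-like cells hold 53.7% and 41% of *Pdgfrb* and 32.8% and 63.6% of *Pdgfd*. Excitatory neuron-like cells hold 54.4% and 58.1% of *Pdgfa*, 54.3% and 48.9% of *Pdgfb* and 57.9% and 62.3% of *Pdgfc*.

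*Pdgfc*, a protease-activated ligand of the alpha receptor, was highest in mature OL-like cells, with 139 CPM in control (113 to 168, 103 UMIs) and 174 CPM in WMI (138 to 215, 82 UMIs), a ratio of 1.25 (0.925 to 1.69). The larger mature sub-cluster held 164 and 196 CPM and the smaller one 98.4 and 151 CPM, against 40.8 and 44.6 CPM in the largest OPC-like sub-cluster. Within the lineage, *Pdgfra* was thus highest in OPC-like and *Pdgfc* in mature OL-like cells. *Pdgfc* was not confined to the mature end, with 48.7 CPM in OPC-like and 35.9 CPM in pre-OL-like cells over both libraries. Astrocyte-like cells held 77.1 CPM in control (66.5 to 88.8) and 105 CPM in WMI (94.3 to 118), a ratio of 1.37 (1.14 to 1.65). Their thinned shares of cells with a UMI were 7.22% and 8.59% (unthinned 27.8% and 34.4%), against 3.02% and 3.56% in microglia-like cells (9.74% and 7.72%). An antisense gene, *Gm16000*, shares 147 exon bases with *Pdgfc* and had 228 UMIs, with 9.05 CPM in mature OL-like, 6.06 in striatal projection neuron-like and 5.05 in astrocyte-like cells. *Pdgfa* has such an antisense gene as well, *6330403L08Rik*, which shares 813 exon bases with it and had 154 UMIs. Whether the counting used strand is not given in the sources used here.

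Excitatory neuron-like cells held 40 CPM of *Pdgfc* in control (38 to 42.2, 1376 UMIs) and 56.8 CPM in WMI (54.2 to 59.4, 1841 UMIs), a ratio of 1.42 (1.32 to 1.52). Inhibitory neuron-like cells of the same libraries held 18.2 and 17.2 CPM. The excitatory clusters ranged from 16.9 to 78.6 CPM over both libraries. The WMI level was the higher one in 10 of 13, with an interval above 1 in 5 and below 1 in 0. In male cells alone, 3 of these 5 had a ratio below 1 (0.929, 0.796 and 0.826) and another had 1.77 (0.757 to 3.72), each with an interval that includes 1. The only other cluster read in male cells alone, led by *Dnah14*, had 1.47 (1.09 to 1.98) there and 1.09 (0.883 to 1.34) with all cells. For the whole class the log2 ratio was 0.50 and ranged from 0.41 to 0.56 over 14 alternatives, male cells among them. The widest gap was in a cluster that carried the layer 6 corticothalamic markers *Foxp2*, *Syt6*, *Tle4* and *Hs3st4*, at 39.4 CPM in control and 97.8 CPM in WMI (ratio 2.48, 2.08 to 2.96). In this cluster 1.31% of 5512 genes with at least 200 UMIs were more than 2-fold higher in WMI. With cells that carried Y-linked UMIs and no *Xist*, the levels there were 38.5 and 115 CPM (ratio 2.98, 2.35 to 3.77). A cluster with the layer 5 markers *Etv1* and *Deptor* went from 45.1 CPM in control to 89.5 CPM in WMI (ratio 1.98, 1.53 to 2.59), where 1.35% of genes were more than 2-fold higher in WMI, but in male cells alone the ratio was 0.796 (0.456 to 1.32), so that sex and injury cannot be told apart for it.

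**Figure D4:**
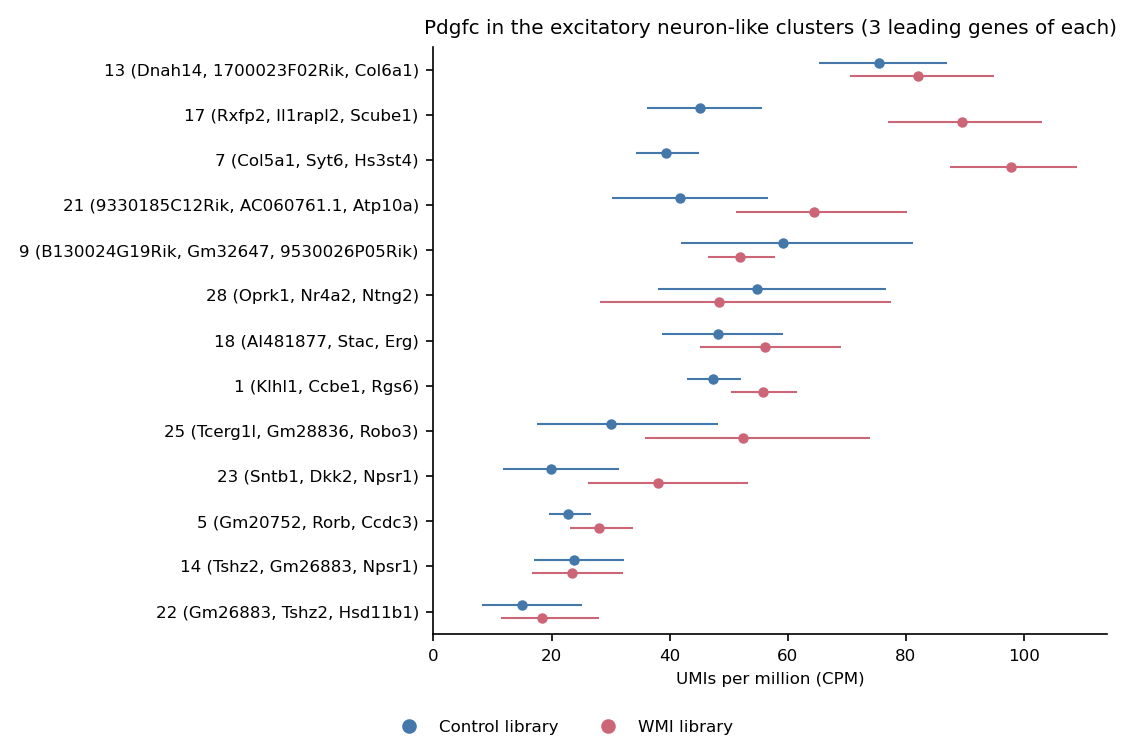
*Pdgfc* in the clusters of excitatory neuron-like cells, in CPM of each library with 95% Poisson intervals for counting error. The layer 6 corticothalamic cluster shows the widest gap (39.4 CPM in control and 97.8 in WMI), and most of the other clusters lie close together.

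*Pdgfd*, a protease-activated ligand of the beta receptor, showed the largest difference between the libraries. Over all kept cells it stood at 7.19 CPM in control (408 UMIs) and 19.4 CPM in WMI (1035 UMIs), a ratio of 2.69. Its highest levels were vascular. Fibroblast-like cells held 459 CPM in control (387 to 540, 144 UMIs) and 479 CPM in WMI (409 to 557, 168 UMIs), a ratio of 1.04 (0.829 to 1.31). Of the control UMIs, 49 came from 1 cell, and without the highest cell of each library the log2 ratio was 0.44 (0.056 to 0.83). In male cells alone the fibroblast-like log2 ratio was -1.97 (-2.88 to -1.18). With all cells counted, the fibroblast-like sub-clusters differed in direction. That led by *Bmp6* held 296 CPM in control and 535 in WMI (ratio 1.81, 1.24 to 2.72). That led by *Bnc2* held 635 and 374 CPM from 90 and 33 UMIs (ratio 0.59, 0.383 to 0.888). Of its 90 control UMIs, 49 came from the 1 cell named above. The ratio of this sub-cluster thus leans on 1 cell and was not calculated without it. The smallest sub-cluster held 356 and 363 CPM (ratio 1.02, 0.452 to 2.22). The *Bmp6* sub-cluster made up 45.1% of the control and 70.5% of the WMI fibroblast-like cells. Endothelial-like cells held 438 CPM in control (308 to 604) and 315 CPM in WMI (197 to 477), which over both libraries did not differ from fibroblast-like cells beyond counting error.

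The difference was largest in UMIs in astrocyte-like cells. Their *Pdgfd* level was 54.1 CPM in control (45.3 to 64, 134 UMIs) and 215 CPM in WMI (199 to 232, 658 UMIs), a ratio of 3.97 (3.3 to 4.82). Excitatory neuron-like cells held 0.99 and 2.28 CPM from 34 and 74 UMIs (ratio 2.31, 1.52 to 3.57), and pre-OL-like cells 0 UMIs in control and 12 in WMI (5.34 CPM). In astrocyte-like cells 3.35% of 4623 genes with at least 200 UMIs were more than 2-fold higher in WMI. The thinned shares of cells with a UMI were 4.12% and 14.9% (unthinned 12% and 38.1%, at depths of 4812 and 4834.5), against 0.065% and 0.323% in excitatory neuron-like cells. Over both libraries, astrocyte-like cells held 54.9% of all *Pdgfd* UMIs and fibroblast-like cells 21.6%. These shares were 32.8% and 35.3% in control and 63.6% and 16.2% in WMI, so the order held in WMI alone. In astrocyte-like cells, the summed level of the 11 fibroblast markers was 133 CPM in control and 93.1 CPM in WMI, and that of the 11 endothelial markers was 16.9 and 16.3 CPM. The summed astrocyte markers were 21406 and 16018 CPM, and the microglia markers 175 and 591 CPM. The part of these differences in the *Pdgfd* ratio was not tested.

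Part of the ratio followed the makeup of the class. The sub-cluster led by *A2m* and *Gfap*, the intermediate filament of reactive astrocytes, held the highest level, 357 CPM in control and 353 in WMI (ratio 0.988, 0.704 to 1.43). It made up 3.92% of the control and 31.4% of the WMI astrocyte-like cells and carried 27.6% and 57.3% of their *Pdgfd* UMIs. The other 3 sub-clusters each stood higher in WMI. The largest, led by *Gli3*, held 33.7 and 103 CPM (ratio 3.04, 2.11 to 4.44), and the second 58.8 and 131 CPM (ratio 2.23, 1.55 to 3.26). The third, led by *Tnc*, a matrix protein, held 25.9 CPM from 6 UMIs and 240 CPM from 95 UMIs (ratio 9.27, 4.11 to 25.9). In male cells alone the ratios of these 3 were 3.75 (2.18 to 6.31), 1.16 (0.547 to 2.3) and 13.6 (5.82 to 38.7). With the sub-clusters given equal shares in both libraries, the log2 ratio of the class was 0.80 in place of 1.99. *Pdgfd* was among the leading genes of the *A2m* sub-cluster although it was not used to form it.

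**Figure D5:**
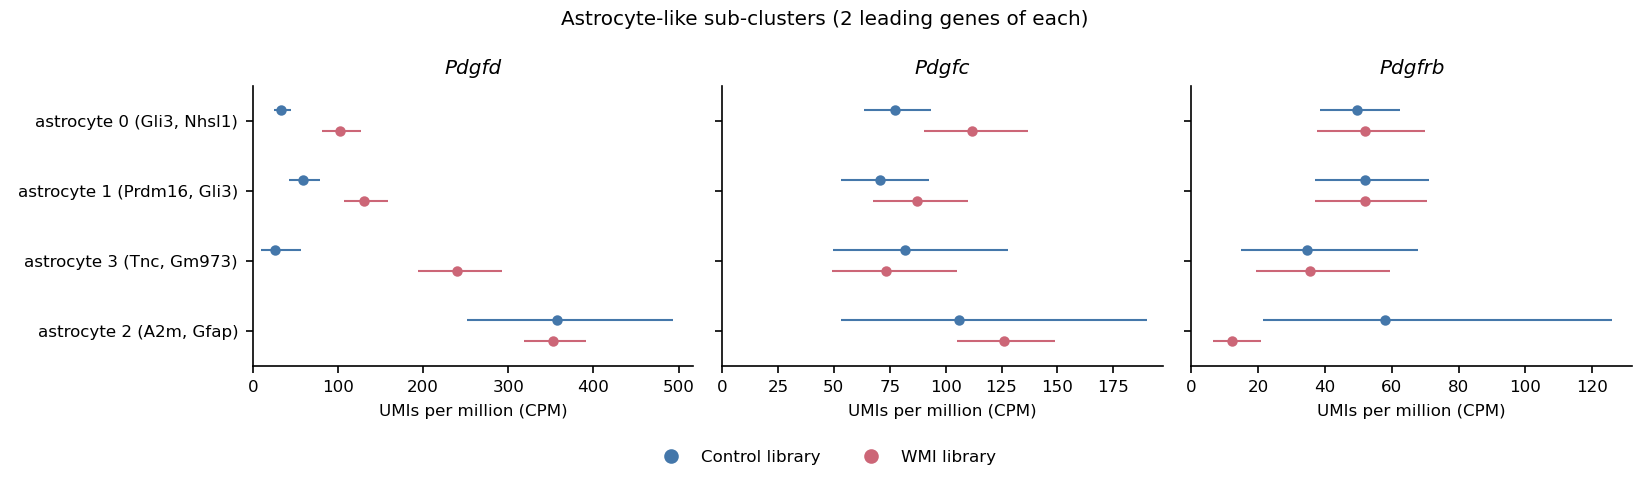
*Pdgfd*, *Pdgfc* and *Pdgfrb* in the sub-clusters of astrocyte-like cells, in CPM of each library with 95% Poisson intervals for counting error. *Pdgfd* is close in both libraries in the *A2m* sub-cluster (357 and 353 CPM) and higher in WMI in the other 3, whereas *Pdgfrb* is close in those 3 and lower in WMI in the *A2m* sub-cluster (58 and 12.2 CPM).

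The ligand *Pdgfd* and the receptors were also read cell by cell, with all UMIs. Of 1067 astrocyte-like cells, 55 (5.15%) held a UMI of both *Pdgfd* and *Pdgfrb*, and *Pdgfd* was found in 19.2% of the *Pdgfrb* cells and 12% of all in control and in 37.5% and 38.1% in WMI. Of 112 fibroblast-like cells, 27 (24.1%) held both *Pdgfd* and *Pdgfra*, and *Pdgfd* was found in 57.9% of the *Pdgfra* cells and 56.9% of all in control and in 59.3% and 59% in WMI. Depth was not made equal for these shares. After thinning, 2 astrocyte-like and 4 fibroblast-like cells held both genes, too few to compare.

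Past 1.5-fold in either direction stood 0 of the 4 members that had at least 200 UMIs in their highest class with 50 cells in each library. The share of all genes past this limit was 4.19% in OPC-like cells (the class of *Pdgfra*), 15.3% in microglia-like cells (*Pdgfb*), 15.2% in astrocyte-like cells (*Pdgfc*) and 14.2% in fibroblast-like cells (*Pdgfd*), so that 0 of 4 is near the background. *Pdgfd* in astrocyte-like cells, outside its highest class, was past the limit.

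The genes around the receptors were read in OPC-like cells, where *Pdgfra* is used. Of a list of 34 proteases, co-receptors, adaptors and brakes of PDGF signalling, 18 had at least 200 UMIs. The WMI level was the higher one for 12 and the lower one for 6, with a median log2 ratio of 0.17, against 0.026 over 3552 genes. Past 1.5-fold were 1 gene higher and 0 lower, where 2.67% and 1.52% of all genes were. The 1 gene was *Pik3cb*, a catalytic subunit of phosphoinositide 3-kinase, at 58.9 CPM in control and 89.7 in WMI (log2 0.61). Its sister subunit *Pik3ca* had the lowest ratio, at 98.8 and 77.8 CPM (log2 -0.35).

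Among the proteases that process or activate the ligands, *Furin*, which trims the propeptides of PDGF-A and PDGF-B, stood at 12.3 and 14 CPM in OPC-like cells, and *Plat*, tissue plasminogen activator, which activates PDGF-C, at 8.98 and 14.4 CPM. *Plau*, urokinase, which activates PDGF-D, had 0 UMIs in control, which allows up to 2.07 CPM, and stood at 0.798 CPM in WMI. *Nrp1*, a co-receptor, stood at 69 and 97.3 CPM (log2 0.50, 0.18 to 0.82). *Cspg4*, the NG2 proteoglycan that OPCs carry beside the alpha receptor, stood at 226 and 195 CPM (log2 -0.21, -0.41 to -0.019), and the endocytic receptor *Lrp1* at 217 and 214 CPM. *Stat3*, a transcription factor that kinase receptors activate, stood at 66.2 and 91.7 CPM (log2 0.47). *Cblb*, a ubiquitin ligase that removes active receptors, stood at 95.4 and 76.6 CPM, and *Sos2*, which links receptors to Ras, at 103 and 84.9 CPM.

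The genes whose levels ran most like each member over 20 sums of a class in a library were taken among 14750 genes, by Pearson's r of log2(CPM + 10). The sums of 1 library share its depth and its free RNA, and the values are descriptions. For *Pdgfra* they were *Pcmtd2* (0.897), *Gm15418* (0.873) and *Fam19a4* (0.857), and for *Pdgfrb* *Fmo1* (0.983), *Aox1* (0.975) and *Aldh1a1* (0.968). For *Pdgfa* they were *Tmem108* (0.827), *Rapgef1* (0.826) and *Gm35501* (0.819), and for *Pdgfb* *Gm5431* (0.929), *Klhl6* (0.928) and *Arap3* (0.922). For *Pdgfc* they were *Ccdc13* (0.894), *Cdh19* (0.862) and the antisense gene *Gm16000* (0.861), and for *Pdgfd* *Ahnak* (0.971), *Itga1* (0.960) and *Anxa2* (0.959). *Pdgfrb* and *Pdgfd* had the closest matches, and *Pdgfa*, the member spread most evenly, the loosest. Sums of under 20 cells were left out. The *Pdgfrb* matches were thus found without mural-like cells (1 and 12 cells), its highest class. WMI endothelial-like cells (15 cells) were also left out.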

How the data were processed

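The deposited tables are whole-number UMI counts of each gene in each barcode, without normalization. The file headers name Cell Ranger 6.1.1 as the authors' counting tool. Gene identifiers and symbols match GENCODE M21 on GRCm38, although the submitters' processing notes name mm9 and Seurat. Barcodes with at least 1000 UMIs, at least 500 genes and at most 10% mitochondrial UMIs were kept. Doublets were predicted from simulated ones within each library, and an assumed rate of 0.8% for each 1000 barcodes set the number removed, 785 in control and 542 in WMI. Of 500 artificial doublets added to each library, 404 and 382 were found.

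Cells were integrated and clustered with Seurat 5.3.0 in R 4.3.3 (2000 variable genes, 30 dimensions, resolution 0.8), without the PDGF genes and the pathway list among the variable genes. Clusters were called X-like from marker lists. OL-lineage, astrocyte-like and vascular cells were clustered again. Sums of UMIs were taken per class and library, and shares of cells were taken with the cells thinned to 1000 UMIs. The genes named are the 6 members, the 3 genes most like each over 20 sums of a class in a library, and, of 34 PDGF pathway genes, *Furin*, *Plat*, *Plau*, *Nrp1*, *Cspg4*, *Lrp1* and, among those with at least 200 UMIs, the 3 highest and 3 lowest by ratio. Other genes are named as leaders or markers of clusters, or because they lie on the opposite strand of a member. The members, lists and alternatives were chosen with earlier results of these data known. The calculation of ratios was checked on simulated counts drawn from the sums of OPC-like cells. The software was Python 3.11.15, scipy 1.17.1, numpy 2.4.6, matplotlib 3.10.9 and pandas 2.3.3. With 1 library per group, differences between the libraries can stem from the animals, the dissection or the sex of the cells as well as from the injury.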

Additional observations from a re-analysis of the deposited data

Results flagged for a closer look

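For 3 members, classes of the same libraries differed in the direction of the ratio of WMI to control, each with an interval on 1 side of equality. The share of all genes that do so was not calculated, so this count is not read as a trait of the family. With 1 library per group, the difference between classes was not tested. The log2 ratio of *Pdgfra* was -0.18 in OPC-like cells, against 0.75 in astrocyte-like, 1.18 in microglia-like, 0.43 in excitatory neuron-like and 0.90 in inhibitory neuron-like cells, all of them classes with low levels (7.1 to 32 CPM in either library). For *Pdgfrb* it was -0.45 in astrocyte-like and 0.81 in excitatory neuron-like cells, where the levels were 0.844 CPM in control and 1.48 CPM in WMI. For *Pdgfb* it was -1.13 in astrocyte-like cells (23 and 13 UMIs), against 0.55 in microglia-like, 0.34 in excitatory neuron-like and 1.77 in OPC-like cells (5 and 24 UMIs).

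Clusters without a name held members above their level over all kept cells. *Pdgfra* stood at 46 CPM in the WMI cluster led by *Ftl1* and *Spp1* and *Pdgfb* at 33.9 CPM, against 30.4 and 15 CPM over all cells. WMI barcodes under 1000 UMIs held 41 CPM (15 to 89.2) of *Pdgfra* and 20.5 CPM (4.22 to 59.9) of *Pdgfb*. The part of free RNA in the clusters without a name was not tested. The cluster led by *Apobec1* and *Gpnmb* held 59.3 CPM of *Pdgfb* and 71 CPM of *Pdgfc*, against 48.4 CPM of *Pdgfc* over all cells. A shallow neuronal cluster with 1180 control and 7 WMI cells held 42 CPM of *Pdgfa* and 26.8 CPM of *Pdgfb*. Control barcodes under 1000 UMIs held 38.7 CPM (24 to 59.2) and 33.2 CPM (19.7 to 52.4) of these. Among vascular cells, a sub-cluster of 28 cells led by *Ndnf*, *Trp73* and *Reln* held 64.5 CPM of *Pdgfa* and 43 CPM of *Pdgfb*, from a few UMIs each.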

How the results depend on the processing

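No paired analysis was possible because each group had 1 library, and for the same reason no library could be left out. Values are log2 ratios of WMI to control unless a unit is given, and the cause of a change was not tested. Added after seeing the data were leaving out the cell with the most UMIs and all alternatives for *Pdgfd* and *Pdgfrb* in astrocyte-like and *Pdgfc* in excitatory neuron-like cells. With cells thinned to 1000 UMIs, *Pdgfra* in OPC-like cells moved from -0.18 to -0.045 and *Pdgfc* in astrocyte-like cells from 0.45 to 0.17. *Pdgfrb* moved from 0.40 to 1.33 in fibroblast-like and from -0.45 to -0.022 in astrocyte-like cells. *Pdgfa* in pre-OL-like cells moved from -0.077 to 1.42. Thinning was drawn once and left few UMIs of a member, so these values have a larger counting error than those with all UMIs. UMIs per cell gave -0.37 for *Pdgfra* in OPC-like cells. In fibroblast-like cells a resolution of 1.6 gave 2.09 for *Pdgfrb* and -0.68 for *Pdgfd*, and clusters without integration 2.01 and -0.76, so that those *Pdgfd* ratios turned from 0.06 to below 0. At a resolution of 0.4 *Pdgfrb* there was 1.13 (0.42 to 1.88). *Pdgfb* in microglia-like cells turned to -0.34 without integration, and its interval also included 0 at a resolution of 1.6 (0.24, -0.17 to 0.66), with at most 1% of mitochondrial UMIs (0.38, -0.086 to 0.85), in male cells (0.58, -0.15 to 1.29) and with thinning (0.35, -0.41 to 1.16). That of *Pdgfra* in OPC-like cells included 0 in male cells (-0.11, -0.31 to 0.092). Male cells alone gave 0.65 for *Pdgfa* in pre-OL-like and -1.97 for *Pdgfd* in fibroblast-like cells, and without the highest cells the latter was 0.44. *Pdgfd* in astrocyte-like cells was 0.80 with equal sub-cluster shares and stayed above 0 under all 14 alternatives run. Without the clusters of mostly 1 library, *Pdgfrb* there was -0.0064.

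Differences in shares of cells are in percentage points. That of *Pdgfra* in OPC-like cells moved from -0.472 to -8.06 with thinning to 2000 UMIs and to -8.44 without thinning. That of *Pdgfa* in pre-OL-like cells moved from 3.44 to -2.07 with 2000 UMIs. That of *Pdgfc* in astrocyte-like cells moved from 1.37 to 6.53 without thinning. Each thinning was drawn once, and that to 2000 UMIs left out shallower cells. Shares of cells with 2 members went without thinning from 3.57% to 24.1% (*Pdgfra* and *Pdgfd*, fibroblast-like), from 0.187% to 5.15% (*Pdgfrb* and *Pdgfd*, astrocyte-like) and from 0.452% to 3.87% (*Pdgfra* and *Pdgfa*, OL lineage). With a minimum of 50 UMIs in place of 200, pathway genes past 1.5-fold in OPC-like cells went from 1 of 18 to 4 of 31. Members went from 0 of 2 to 1 of 3. The share of all genes past this limit went from 4.19% to 12.4%, so the pathway count stayed near the background. With a limit of 2-fold and 200 UMIs the pathway count was 0, where 0.929% of all genes were past it. With predicted doublets kept, no cluster was named fibroblast-like, so that this setting has no value for *Pdgfrb* and *Pdgfd* there. Depth limits what can be said of the vascular classes, where most member values rest on under 60 UMIs.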

Other observations

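Barcodes under 1000 UMIs, 739 in control and 208 in WMI, were in no class and may hold free RNA as well as poor cells. In control they held *Pdgfra* at 47.9 CPM (31.3 to 70.2), *Pdgfa* at 38.7 CPM (24 to 59.2), *Pdgfb* at 33.2 CPM (19.7 to 52.4) and *Pdgfc* at 27.6 CPM (15.5 to 45.6). *Pdgfd* had 0 UMIs there, which allows up to 6.8 CPM. In WMI they held *Pdgfra* at 41 CPM (15 to 89.2), *Pdgfa* at 47.8 CPM (19.2 to 98.5), *Pdgfb* at 20.5 CPM (4.22 to 59.9), *Pdgfc* at 27.3 CPM (7.44 to 69.9) and *Pdgfd* at 13.7 CPM from 2 UMIs (1.65 to 49.3). The *Pdgfra* level of the control barcodes stood above that of control excitatory neuron-like cells, at 7.1 CPM.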
